A study of Mus musculus with 12 samples.

Results

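The classical MHC class I (MHC-I) pathway was followed at the RNA level in MLL-AF9 leukemia cells recovered from 3 kinds of host mouse. It was represented by 10 genes listed by name, not ranked by their measured values. The list was chosen with earlier results of these data known. It held the heavy chains H2-K1 and H2-D1, the light chain B2m, the peptide transporter Tap1 and Tap2, and the loading factor Tapbp. It also held the transactivator Nlrc5 and the immunoproteasome subunits Psmb8, Psmb9 and Psmb10. All 10 were present among the 55401 genes of the expression table, and all 10 were among the 15026 genes that passed the filter of a mean of at least 1 TPM, a measure of transcript level scaled for gene length and for the total of each library. For each host 4 libraries were made, 12 in all, from GFP+ cells of bone marrow.

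The WT group was C57BL/6J mice with intact immunity. The Rag2-/- group was C57BL/6J-Rag2em3Lutzy/J mice, which cannot rearrange antigen receptor genes and lack mature T and B cells but keep natural killer (NK) cells. The NSG group was severely immunodeficient mice that lack T, B and NK cells and come from the NOD strain, which carries another H2 haplotype than C57BL/6. The hosts of the sequenced cells were female, and the study used mice of 8 to 12 weeks. The leukemia itself was the same in all 3 groups: bone marrow progenitors transduced with the MLL-AF9 fusion gene and GFP, then passaged many times through non-irradiated mice, so the groups are 1 leukemia line in 3 environments. The host genotype is therefore not the genotype of the sequenced cells, and Rag2 in these cells is no check of the labels.

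MHC-I molecules display short peptides from inside the cell to CD8 T cells, and they also engage inhibitory receptors on NK cells, so that a cell with little MHC-I is open to NK attack. Peptides are cut by the proteasome, carried into the endoplasmic reticulum by the TAP transporter and loaded onto a heavy chain paired with beta-2 microglobulin while tapasin holds the complex. Interferon raises most of these genes together through IRF1 and the transactivator NLRC5. The comparison of hosts asks whether the RNA for this pathway differed between leukemia cells that grew with T, B and NK cells, with NK cells but no T or B cells, or with none of these. The study also stained H2-Kb, the protein of the b allele of H2-K1, on cells from male mice by flow cytometry. In that staining the study reported more H2-Kb on cells from Rag2-/- mice than on cells from WT mice. That staining measures protein on the surface of cells from other animals and was not analysed here, so the values that follow speak of transcripts only. The H2-K1 transcript was not higher in Rag2-/-, with a log2 fold change of -0.40 against WT that was not called. How transcript and surface protein relate was not tested.

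The promoters of the chains that form the surface molecule are shown first, since they carry the elements through which interferon and NLRC5 act. Each runs from 250 bases before to 50 bases after the annotated start (RefSeq, GRCm38.p6), 5′ to 3′ on the strand of the gene. Capitals mark matches to the kB element GGGANTCCC, to the interferon regulatory factor core AANNGAAA, and to an X2 half-site TGACG followed 20 to 30 bases downstream by ATTGG, the reverse complement of the Y box CCAAT. H2-K1 lies at chr17:34000298-34000597 on the minus strand, H2-D1 at chr17:35262844-35263143 on the plus strand, and B2m at chr2:122147437-122147736 on the plus strand.
H2-K1: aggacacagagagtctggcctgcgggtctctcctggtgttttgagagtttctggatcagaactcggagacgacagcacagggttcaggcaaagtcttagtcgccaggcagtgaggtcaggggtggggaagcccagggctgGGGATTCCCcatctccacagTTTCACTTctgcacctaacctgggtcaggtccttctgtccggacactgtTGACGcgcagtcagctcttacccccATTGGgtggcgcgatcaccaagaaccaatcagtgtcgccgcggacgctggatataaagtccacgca
H2-D1: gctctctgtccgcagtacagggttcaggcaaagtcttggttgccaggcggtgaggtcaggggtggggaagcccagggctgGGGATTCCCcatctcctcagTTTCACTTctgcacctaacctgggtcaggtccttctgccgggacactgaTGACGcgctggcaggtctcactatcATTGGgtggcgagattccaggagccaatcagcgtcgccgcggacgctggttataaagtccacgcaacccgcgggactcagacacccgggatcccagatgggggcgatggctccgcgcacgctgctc
B2m: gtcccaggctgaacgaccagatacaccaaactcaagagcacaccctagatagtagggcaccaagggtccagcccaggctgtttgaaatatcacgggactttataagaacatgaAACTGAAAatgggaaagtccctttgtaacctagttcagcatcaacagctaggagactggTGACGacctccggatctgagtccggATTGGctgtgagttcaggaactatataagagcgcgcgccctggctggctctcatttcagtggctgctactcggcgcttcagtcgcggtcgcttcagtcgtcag

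All 3 windows held the X2 and reversed Y pair, and in each of them the first bases of both motifs lay 25 bases apart. The pair began 41 bases before the start of H2-K1, 101 before that of H2-D1 and 78 before that of B2m. Among all 32544 promoter windows of the same length, 0.439% held such a pair. The spacing limits were set after these windows had been read, so the shared distance is a description. The interferon regulatory factor core was in the same 3 windows and in 23.9% of all windows, and the kB element was in H2-K1 and H2-D1 and in 0.771% of all windows. The H2-K1 and H2-D1 windows were 88.3% identical over 239 aligned bases. Of the other members, Tap1, Tapbp, Psmb8, Psmb9 and Psmb10 had a window, and none of these 5 held the pair, the core or the kB element on either strand, although Tap1 and Psmb9 each held a lone TGACG and a lone CCAAT. The windows of Tap1 and Psmb9, which are transcribed away from each other, were the same DNA over 275 bases. Tap2 and Nlrc5 were not analysed here for motifs.

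**Figure D1:**
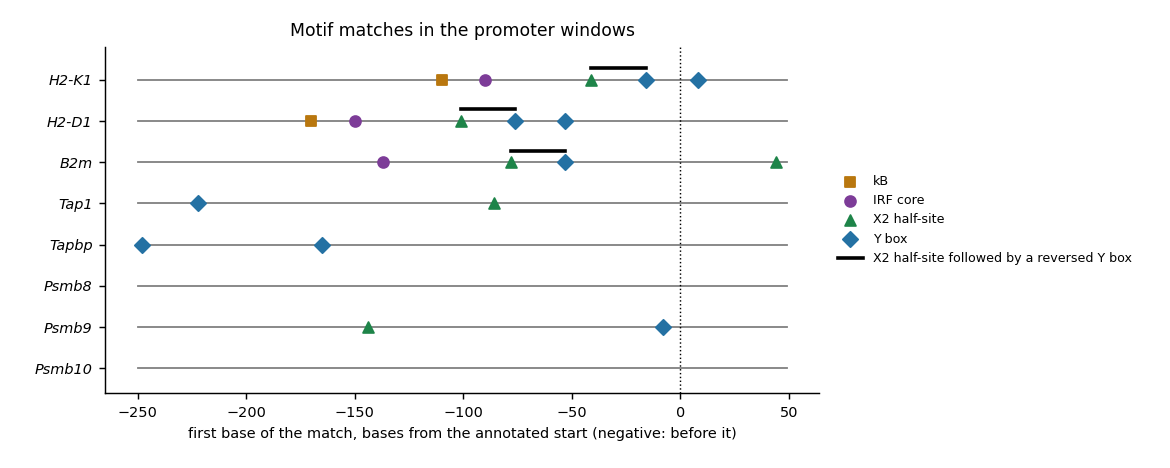
Matches to 4 motifs in the promoter windows of 8 members. The x axis is the distance in bases of a match's first base from the annotated start, each grey line is 1 window of 300 bases, and black bars join an X2 half-site to the reversed Y box that follows it, which occurs in H2-K1, H2-D1 and B2m.

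By position, 7 of the 10 members lie on chromosome 17 in the mouse H2 region (GENCODE M21, GRCm38). Psmb9, Tap1, Psmb8 and Tap2 form a cluster of 34.3 kb from 34181987 to 34216321, next to which Tapbp (33915899 to 33929292) and H2-K1 (33996017 to 34000347) lie on one side and H2-D1 (35262730 to 35267499) on the other. B2m is on chromosome 2 (122147686 to 122153083), and Nlrc5 (94434356 to 94527272) and Psmb10 (105935735 to 105938444) are on chromosome 8.

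The depth was estimated from the steps between low TPM values and came to about 16030000 to 42720000 reads per library, at which 98.8 to 99.1% of the genes under 20 reads were whole numbers within 0.05. At 0.5 times these depths, 63.5 to 66.5% were. The depth is thus inferred from the values, not taken from a reported read count, and the read counts, counting errors and voom results rest on it. The member with the fewest reads was Nlrc5, with 402 to 1660, which gives a counting error of 4.99% at the lowest library against a spread between libraries of the same host of 17.9 to 23.3% of the mean. B2m had 12619 to 51092 reads and a counting error of at most 0.890%, with a spread of 12.5 to 27.2%. The spread between libraries was thus larger than the counting error for both. The hosts differed in genes used as markers of other cell types, which may bear on every comparison below. The 5 markers of leukemia and myeloid identity summed to 599 to 653 TPM in Rag2-/- libraries, against 551 to 573 in WT and 544 to 564 in NSG. The log2 fold change of all 5 was above 0 against both hosts, and 0 were called. At an unadjusted p under 0.05 (limma), 3 were higher in each comparison, beside 12.3% and 7.72% of all genes. The 10 neutrophil markers summed to 683 to 2140 TPM in Rag2-/- libraries, against 208 to 335 in WT and 326 to 354 in NSG. Calls of a higher level numbered 10 of 10 against WT and 8 of 10 against NSG, beside 1.14% and 0.193% of all genes. Within Rag2-/-, replicate 4 had the lowest sum and the other replicates 1894 to 2140. For the 10 macrophage markers the sums were 93.2 to 101 TPM in WT, 56.8 to 115 in NSG and 106 to 123 in Rag2-/-, most of it from Adgre1 and Vcam1. Of the 8 tested, 1 was called higher in Rag2-/- in each comparison, C1qc against WT and Axl against NSG. At an unadjusted p under 0.05, 5 were higher than in WT and 6 than in NSG, against 12.3% and 7.72% of all genes. The libraries did not overlap for 4 and 5 of the 8, a count not made over all genes in that direction. T and NK markers stayed at or under 10.2 TPM in sum in every library, 7 of these 11 genes were under 1 TPM throughout and Cd3e was listed at 0 in all 12. Nkg7 was at 1.16 to 7.43 TPM. Its Rag2-/- libraries (1.79 to 5.19 TPM) were all below the WT libraries (5.20 to 6.71), and NSG overlapped both. In that comparison 6.72% of all genes were lower without overlap. The NK receptor Ncr1 was at 0.391, 0.408, 0.531 and 0.108 TPM in the Rag2-/- libraries and listed at 0 in the other 8. The granzyme Gzma was at 2.39, 0.624, 1.62 and 1.32 TPM in Rag2-/-, at 1.67 in 1 NSG library, and listed at 0 in the other 3 NSG libraries and in all of WT. In bulk RNA, fewer cells of a type and less RNA per cell cannot be told apart. Marker transcripts of other cells can likewise not be told from those made by the leukemia cells themselves. The part of other cells in the values of the members was not tested.

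None of the 10 members passed the threshold in any of the 3 comparisons (limma, adjusted p below 0.05 and a log2 fold change of TPM + 1 beyond 0.5). The mean level of 9 of the 10 was nonetheless lowest in Rag2-/-, the exception being Tapbp, which was lowest in NSG. For 7 members the order of the means was NSG, WT, Rag2-/-, and for Tap2 and Psmb10 it was WT, NSG, Rag2-/-. Across all genes tested, 0.326% were called lower and 1.14% higher in Rag2-/- than in WT, 0.02% lower and 0.193% higher in Rag2-/- than in NSG, and 0% in either direction between NSG and WT. The test for any difference among the 3 hosts gave adjusted p-values from 0.0811 for Psmb9 to 0.395 for Nlrc5 (limma F-test), where 1.1% of all genes passed. In a test on reads estimated from the TPM (limma's voom), added after the values were seen, 1 member was called: H2-K1 was lower in Rag2-/- than in NSG, with a log2 fold change of -0.59 (adjusted p = 0.0464), where 0.0867% of the 15001 genes in that test were called lower.

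**Figure D2:**
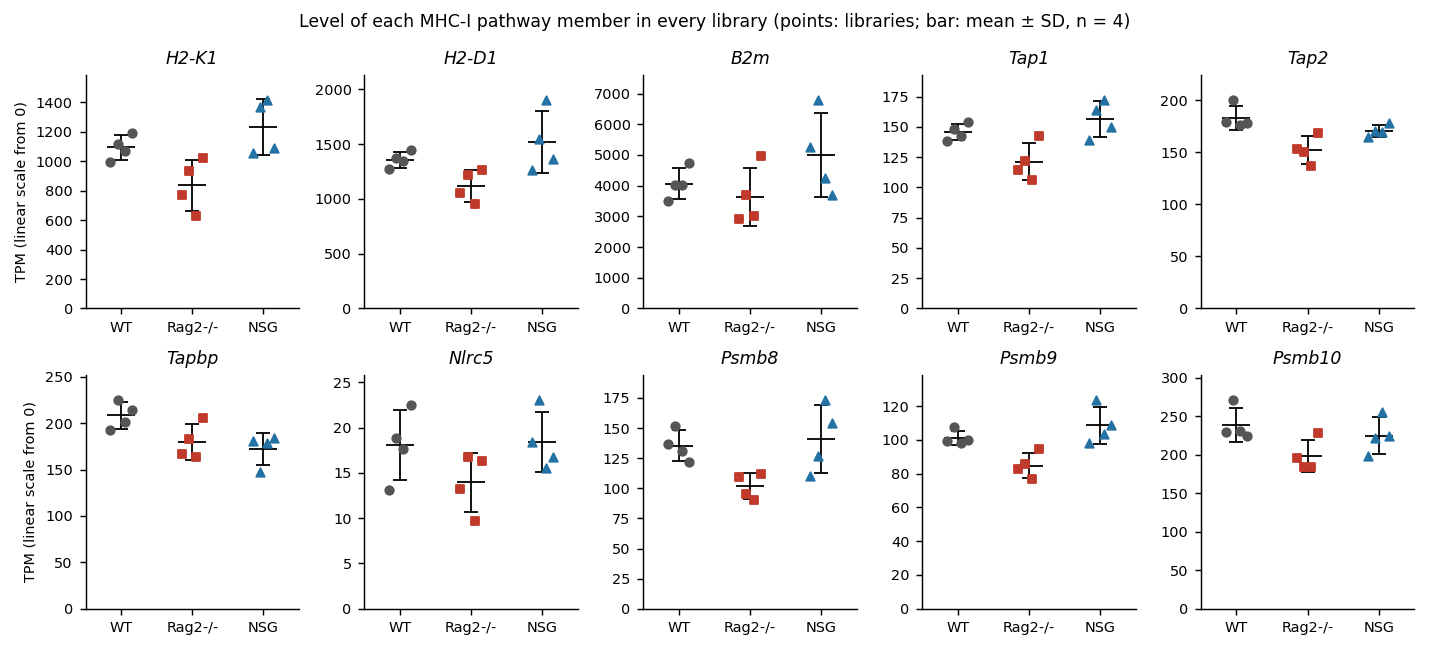
Level of each of the 10 members in TPM (y axis, from 0) in WT, Rag2-/- and NSG hosts. Points are libraries and bars the mean ± SD of 4. The Rag2-/- mean is lowest in 9 of the 10 panels, but all 4 Rag2-/- libraries lie below both other hosts only for H2-D1 and Psmb9. In most panels 1 Rag2-/- library, replicate 4, sits near the WT libraries.

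The heavy chains carry the peptide groove. H2-K1 (ENSMUSG00000061232) was at 994, 1118, 1072 and 1188 TPM in the WT libraries, at 768, 930, 630 and 1021 in Rag2-/-, and at 1054, 1368, 1418 and 1088 in NSG. All 4 Rag2-/- libraries were below every NSG library, while replicate 4 of Rag2-/- lay above replicate 1 of WT. The level in Rag2-/- was 0.755 times that in WT (95% CI 0.609 to 0.936), a log2 fold change of -0.40 (SE 0.14, adjusted p = 0.134, limma). Against NSG the log2 fold change was -0.57 (SE 0.14, adjusted p = 0.122, limma), the only member value beyond the fold limit.

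H2-D1 (ENSMUSG00000073411), the other heavy chain of C57BL/6 cells, was at 1269, 1371, 1347 and 1446 TPM in WT, at 1050, 1218, 952 and 1260 in Rag2-/-, and at 1267, 1545, 1907 and 1366 in NSG. Every Rag2-/- library was below every WT and every NSG library, by 9.43 TPM at the closest to WT and by 7.01 TPM at the closest to NSG. The log2 fold change was -0.29 against WT (SE 0.12, adjusted p = 0.205, limma), while NSG gave -0.43 (SE 0.12, adjusted p = 0.153). The transcripts of the heavy chains share sequence with other H2 genes: 8.11% of the 50-base stretches of H2-K1 and 14.3% of those of H2-D1 also occur in another gene, so their division of reads is uncertain.

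B2m (ENSMUSG00000060802), the light chain without which heavy chains do not reach the surface, was the member with the highest level. It was at 3495, 4012, 4033 and 4729 TPM in WT, at 2918, 3679, 3003 and 4951 in Rag2-/-, and at 5263, 6802, 4265 and 3690 in NSG. The groups overlapped, and the highest Rag2-/- library, replicate 4, was above every WT library. The log2 fold change was -0.19 against WT (95% CI -0.62 to 0.24, adjusted p = 0.634, limma) and -0.45 against NSG (95% CI -0.89 to -0.02, adjusted p = 0.364). The interval against WT thus holds both lower and higher levels of the B2m transcript in Rag2-/-. Single libraries moved that value: it was -0.09 without Rag2-/- replicate 1, -0.11 without replicate 3, -0.35 without replicate 4 and -0.11 without WT replicate 4. Against NSG it was -0.29 without NSG replicate 2 and -0.61 without Rag2-/- replicate 4.

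The transporter is a dimer of TAP1 and TAP2. Tap1 (ENSMUSG00000037321) was at 138, 148, 142 and 154 TPM in WT, at 115, 122, 106 and 142 in Rag2-/-, and at 139, 164, 173 and 150 in NSG. Only replicate 4 of Rag2-/- reached the range of the other hosts, and the log2 fold change was -0.27 against WT (SE 0.09, adjusted p = 0.112, limma) and -0.37 against NSG (SE 0.09, adjusted p = 0.104). Tap2 (ENSMUSG00000024339) was at 178, 200, 176 and 178 TPM in WT, at 153, 150, 136 and 168 in Rag2-/-, and at 165, 170, 170 and 178 in NSG. Every Rag2-/- library was below every WT library. Its log2 fold change against WT, -0.27 (SE 0.07, adjusted p = 0.0477, limma), passed on the adjusted p and missed the fold limit. On the adjusted p alone, 0.739% of all genes were lower. With 1 library left out, Tap2 still passed in 3 of 12 fits, those without Rag2-/- replicate 4, NSG replicate 1 or NSG replicate 3, and in the other 9 the adjusted p was 0.0540 to 0.144. It was also lost with all genes above 0 tested (0.0803), with no trend (0.0838) and with the replicate block (0.0680). By voom it was 0.0296, where 1.61% of genes were lower on the adjusted p alone, and against NSG voom passed H2-K1, Tap1 and Psmb9 on that limit, where 0.16% of genes did. Against NSG the value was -0.17 (adjusted p = 0.293, limma). Exons of genes on the opposite strand cover 18.5% of the exon bases of Tap2, and whether strand was used in counting is not given in the sources used here.

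Tapasin, the product of Tapbp, bridges TAP and the empty heavy chain. Tapbp (ENSMUSG00000024308) was at 192, 225, 201 and 214 TPM in WT, at 166, 183, 164 and 206 in Rag2-/-, and at 181, 147, 178 and 185 in NSG. It was the 1 member without overlap between NSG and WT, as all 4 NSG libraries were below all 4 WT libraries. The log2 fold change was -0.27 (95% CI -0.47 to -0.08, unadjusted p = 0.00967 and adjusted p = 0.425, limma), which was not called. In that comparison 2.38% of all genes were lower without overlap. Against WT the value in Rag2-/- was -0.21 (adjusted p = 0.197, limma), and against NSG it was 0.06 (adjusted p = 0.851). Exons of other genes cover 29.0% of the exon bases of Tapbp, the highest share among the members, and the part of that overlap in its pattern was not tested.

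Nlrc5 (ENSMUSG00000074151) encodes the transactivator that binds the promoters of the MHC-I genes, and it had the lowest level of the 10. It was at 13.1, 18.9, 17.7 and 22.5 TPM in WT, at 13.2, 16.7, 9.70 and 16.3 in Rag2-/-, and at 18.4, 23.1, 15.5 and 16.7 in NSG. The hosts overlapped broadly. The log2 fold changes of -0.35 against WT (SE 0.19, adjusted p = 0.311, limma) and -0.39 against NSG (SE 0.19, adjusted p = 0.425) were within the range of the other members and had larger standard errors than theirs, B2m excepted. Without Rag2-/- replicate 3, the library with the least Nlrc5, they were -0.20 and -0.24. Against WT the value was -0.49 without WT replicate 1, and against NSG it was -0.46 without NSG replicate 3.

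The immunoproteasome subunits replace the constitutive catalytic subunits and change which peptides are cut. Psmb8 (ENSMUSG00000024338) was at 137, 152, 131 and 121 TPM in WT, at 110, 95.2, 90.3 and 112 in Rag2-/-, and at 110, 127, 173 and 154 in NSG. All Rag2-/- libraries were below all WT libraries, and the log2 fold change was -0.41 against WT (SE 0.13, adjusted p = 0.0997, limma), and it was -0.45 against NSG (SE 0.13, adjusted p = 0.154). Exons on the opposite strand cover 14.7% of the exon bases of Psmb8. Psmb9 (ENSMUSG00000096727) was at 99.5, 107, 98.02 and 99.6 TPM in WT, at 82.5, 85.5, 76.5 and 94.5 in Rag2-/-, and at 98.4, 124, 104 and 109 in NSG. Its Rag2-/- libraries were below every library of both other hosts, at -0.26 against WT (SE 0.08, adjusted p = 0.0909, limma) and -0.35 against NSG (SE 0.08, adjusted p = 0.0821). Psmb10 (ENSMUSG00000031897) was at 230, 271, 231 and 224 TPM in WT, at 196, 184, 184 and 228 in Rag2-/-, and at 198, 221, 256 and 224 in NSG. Its values overlapped between all hosts, with -0.27 against WT (adjusted p = 0.125, limma) and -0.18 against NSG (adjusted p = 0.456), the latter -0.12 without NSG replicate 3.

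Set side by side, the log2 fold change of Rag2-/- against WT was below 0 for 10 of 10 members, with a median of -0.27 where the median of all 15026 genes was 0.02 and 45.5% of genes were below 0. An unadjusted p under 0.05 was reached by 8 of the 10, all lower, against 8.66% of all genes, the exceptions being B2m and Nlrc5. The groups did not overlap for H2-D1, Tap2, Psmb8 and Psmb9, 4 of 10, against 6.72% of all genes. Against NSG, 9 of 10 were below 0 with a median of -0.38, where all genes had a median of 0.01 and 46.6% below 0. There 7 of 10 were lower at an unadjusted p under 0.05 against 4.84% of all genes, and H2-K1, H2-D1 and Psmb9 did not overlap, 3 of 10 against 2.25%. Both comparisons use the same Rag2-/- libraries, and the members vary together from library to library, so the counts are not independent of each other. The members were also chosen with earlier results of these data known. Between NSG and WT, 7 of 10 were above 0 with a median of 0.07, and the 1 member at an unadjusted p under 0.05 was Tapbp, lower, where 4.23% of all genes were lower at that limit and 48.5% were below 0.

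**Figure D3:**
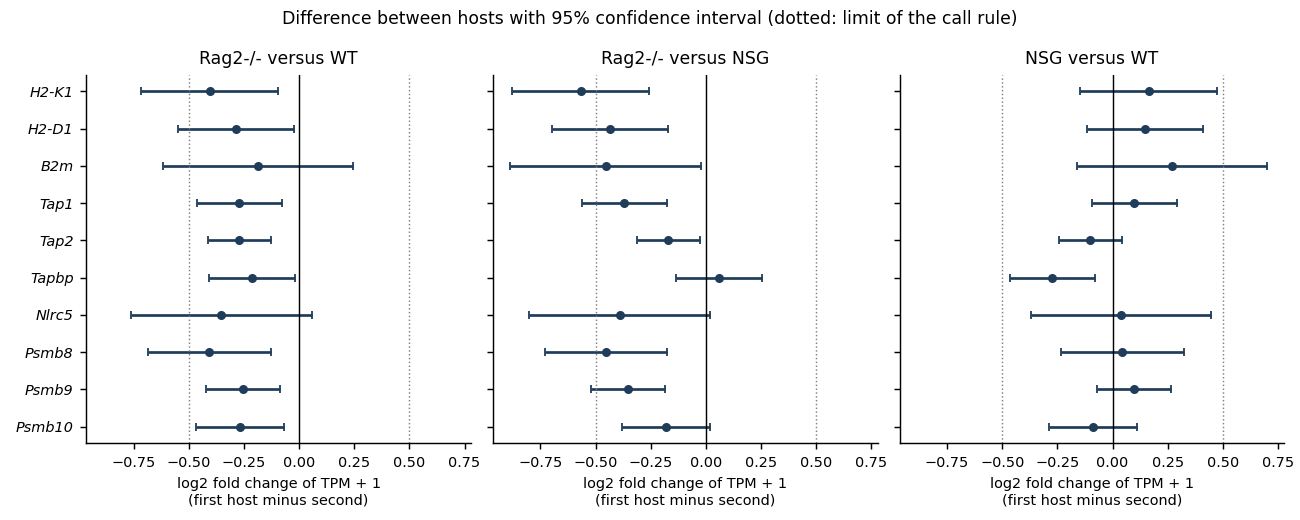
Log2 fold change of TPM + 1 (x axis) of the 10 members in the 3 comparisons, as the first host minus the second, with 95% confidence intervals from limma; dotted lines mark the fold limit of 0.5. For Rag2-/-, every point lies below 0 against WT and all but Tapbp do against NSG. For NSG against WT, 7 of the 10 points lie above 0.

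The libraries of Rag2-/- mice were not alike. Replicate 4 had the highest level within its host for 9 of the 10 members, and replicate 3 the lowest for 8. Summed over the 10 members, Rag2-/- replicates 1 to 4 had 5572, 6663, 5354 and 8199 TPM, where WT had 6746 to 8377 and NSG 7161 to 10691. Replicate 4 was thus within the WT range in this sum, of which B2m was the largest part. For H2-D1, Tap2, Psmb8 and Psmb9 it was below every WT library. It was also the Rag2-/- library with the fewest neutrophil marker transcripts (683 TPM). Without it, the median log2 fold change of the members was -0.35 against WT and -0.46 against NSG. Without replicate 3, it was -0.21 against WT. No member was called when any 1 library was left out. Without replicate 4, Tap1 passed on the adjusted p alone (0.0405 against WT and 0.0260 against NSG, limma), as did Psmb9 against NSG (0.0362).

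The balance within the pathway was compared as ratios of TPM, which are per length. The immunoproteasome subunit Psmb8 stood to its constitutive counterpart Psmb5 at 0.4995 in WT, 0.451 in Rag2-/- and 0.522 in NSG (geometric means of 4 libraries). Psmb9 stood to Psmb6 at 0.592, 0.543 and 0.588, and Psmb10 to Psmb7 at 3.17, 2.88 and 2.80, in the same order of hosts. Psmb10 thus exceeded its counterpart in every library, from 2.55 to 3.39, and the other 2 stayed below theirs. Tap1 stood to Tap2 at 0.795 in WT, 0.795 in Rag2-/- and 0.914 in NSG, H2-K1 to H2-D1 at 0.804, 0.740 and 0.813, and H2-K1 to B2m at 0.270, 0.232 and 0.251. The hosts overlapped in all 6 ratios. Of the 18 comparisons the smallest p was 0.0571, for Tap1 to Tap2 in Rag2-/- against NSG (two-sided exact permutation test of 4 against 4, adjusted p = 0.309), where the design allows no p below 0.0286.

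Over the 12 libraries, H2-K1 varied most closely with Tap1 and H2-D1. For Tap1 Pearson's r on log2(TPM + 1) was 0.98 and Spearman's rho 0.97 (permutation p = 1e-05 for both, the smallest 100000 permutations can give, adjusted p = 0.00011 and 5.5e-05). Tap1 and H2-K1 also varied together within hosts, with r = 0.94 after each host's mean was subtracted, and r was 0.95 without Rag2-/- replicates 1 and 3, the 2 libraries farthest from the median of H2-K1. For H2-D1 r was 0.96 and rho 0.98 (permutation p = 2e-05 and 1e-05, adjusted p = 0.00011 and 5.5e-05), with 0.91 within hosts and 0.94 without those 2 libraries. H2-D1 shares transcript sequence with H2-K1, whereas Tap1 shares none with it.

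The other members followed less closely. Psmb9 had r = 0.89 and rho = 0.87 (permutation p = 0.00019 and 0.00047, adjusted 0.0007 and 0.0017), and r = 0.69 within hosts. Nlrc5 had r = 0.79 and rho = 0.68 (permutation p = 0.0025 and 0.019, adjusted 0.0069 and 0.034), with 0.70 within hosts and 0.44 without the 2 farthest libraries. B2m had r = 0.74 and rho = 0.69 (permutation p = 0.0066 and 0.017, adjusted 0.012 and 0.034), with 0.64 within hosts. Psmb8 had r = 0.73 and rho = 0.74 (permutation p = 0.0058 and 0.0078, adjusted 0.012 and 0.021), and r was 0.38 within hosts. Tap2 and Psmb10 had r of 0.70 and 0.69 (permutation p = 0.013 and 0.011, both adjusted 0.018) and rho of 0.57 and 0.59 (permutation p = 0.055 and 0.046, adjusted 0.076 and 0.072). The relation of Tap2 rests on the 2 farthest libraries, since r was 0.23 without them. Tapbp stood apart from the rest, with r = 0.17 and rho = 0.19 (permutation p = 0.59 and 0.56, adjusted 0.59 and 0.56), and r was -0.42 without the 2 farthest libraries.

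**Figure D4:**
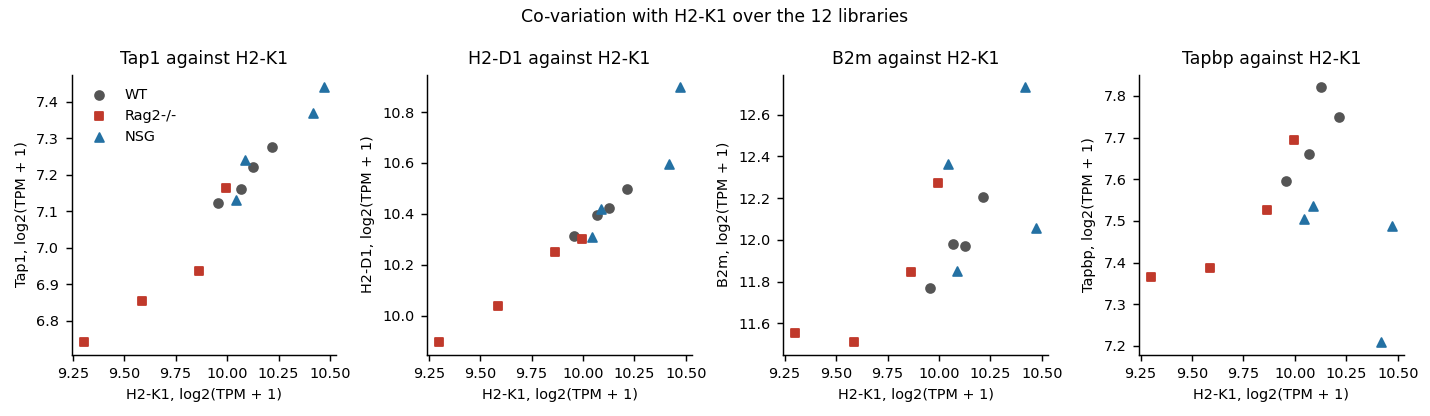
Tap1, H2-D1, B2m and Tapbp (y axes) against H2-K1 (x axis), each as log2(TPM + 1), with 1 point per library and a marker per host. Tap1 and H2-D1 lie close to a line with H2-K1 (r = 0.98 and 0.96), and Tapbp does not (r = 0.17).

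Irf1, the interferon-induced factor that binds the core element, had r = 0.66 and rho = 0.44 (permutation p = 0.02 and 0.15, adjusted 0.024 and 0.17), with r = 0.45 without the 2 farthest libraries. The family held 11 relations, adjusted together. By the rule for likeness, the 5 genes outside the pathway list whose pattern over the 12 libraries was most like the mean Z score of the members were Bst2 (r = 0.92), Tfr2 (0.92), Fabp5 (0.91), Dnlz (0.91) and Xpc (0.91).

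Of 17 further genes of antigen processing, all tested, 0 were called in any comparison by limma on TPM or by voom. At an unadjusted p under 0.05, Rag2-/- against WT gave 2 lower and 1 higher, and against NSG 5 lower and 1 higher. At that limit 8.66% of all genes were lower and 12.3% higher against WT. Against NSG the shares were 4.84% lower and 7.72% higher. The closest to a call were Psme2, a subunit of the interferon-inducible PA28 proteasome activator, and Tapbpl, a tapasin relative that edits peptides. Psme2 was at 166, 196, 167 and 167 TPM in WT, at 133, 145, 140 and 156 in Rag2-/-, and at 173, 206, 196 and 196 in NSG, so that Rag2-/- lay below both other hosts in every library. Its log2 fold change was -0.27 against WT (adjusted p = 0.0644, limma) and -0.42 against NSG (adjusted p = 0.0462), the latter passing on the adjusted p and missing the fold limit, where 0.0266% of all genes were lower on the adjusted p alone. Tapbpl was at 132, 130, 125 and 126 TPM in WT and at 102, 87.0, 91.0 and 114 in Rag2-/-, also without overlap, with -0.39 (adjusted p = 0.0388, limma) and again short of the fold limit. With 1 library left out, Tapbpl passed on the adjusted p in 5 of 12 fits, in none that dropped a WT library or Rag2-/- replicate 1, 2 or 3, and reached 0.132, and Psme2 against NSG passed in 4 of 12 and reached 0.171. In NSG Tapbpl was at 126, 135, 106 and 119 TPM, which overlapped Rag2-/-. The general chaperones of the endoplasmic reticulum did not share this direction: the log2 fold change against WT was 0.06 for Calr (adjusted p = 0.766, limma), 0.10 for Canx (adjusted p = 0.561) and 0.23 for Pdia3 (adjusted p = 0.22). The median over the 17 was -0.08 against WT and -0.04 against NSG.

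Of 14 regulators that act on MHC-I promoters, 13 were tested and 0 were called by limma on TPM or by voom, with 2 higher at an unadjusted p under 0.05 against WT and 1 in each direction against NSG. The RFX subunits, which bind the X box with NLRC5, had log2 fold changes against WT from -0.09 for Rfxap to -0.01 for Rfx5. Irf1 was at 55.6 ± 4.44 TPM in WT, 51.0 ± 3.75 in Rag2-/- and 55.8 ± 4.25 in NSG (SD, n = 4), with -0.12 against WT (adjusted p = 0.392, limma). Ciita, the class II relative of Nlrc5, was under 1 TPM in every library. Of 12 interferon and receptor signalling genes, 10 were tested and 0 called by either test. At an unadjusted p under 0.05, 3 were higher and 1 lower in Rag2-/- against WT and 1 higher against NSG. For both lists, the shares of all genes at that limit were 12.3% higher and 8.66% lower against WT. Against NSG they were 7.72% higher and 4.84% lower. Ifng and Ifnb1 were listed at 0 in all 12 libraries. Within that list the values were mixed against WT, with 4 above 0 and 6 below. Stat2 was 0.35 (adjusted p = 0.0988, limma). The receptor chain Ifngr1 was -0.18 (adjusted p = 0.217), with 581 to 771 TPM in Rag2-/- overlapping 713 to 770 in WT. The other chain, Ifngr2, was at 55.8 to 61.3 TPM in Rag2-/- and 47.2 to 52.8 in WT. Jak1 was at 128 to 131 TPM in Rag2-/- and 106 to 121 in WT, so both lay above WT in every library.

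The non-classical class I genes of the same region were measured beside the members, and of 10 such genes 8 were tested and 0 called by limma on TPM. At an unadjusted p under 0.05, 1 was higher and 1 lower in Rag2-/- than in WT, beside 12.3% and 8.66% of all genes. Against NSG, 1 was higher and 5 lower in Rag2-/-, beside 7.72% and 4.84% of all genes. Higher in NSG than in WT were 4, beside 4.93% of all genes. By voom, H2-Q10 was called higher in Rag2-/- than in WT (log2 fold change 0.90, adjusted p = 0.0333) and H2-Q4 lower than in NSG (-0.84, adjusted p = 0.0383), beside 1.24% of genes called higher against WT and the 0.0867% called lower against NSG by voom. H2-Q6 and H2-Q7, which encode Qa-2 antigens, were highest in NSG. H2-Q6 was at 41.0, 80.9, 104 and 26.6 TPM there, at 13.4, 14.3, 20.4 and 29.7 in WT, and at 11.8, 18.4, 9.70 and 20.3 in Rag2-/-. Its log2 fold change was -1.86 in Rag2-/- against NSG (adjusted p = 0.0747, limma) and 1.53 in NSG against WT (adjusted p = 0.342). H2-Q7 gave -1.61 and 1.26 (adjusted p = 0.102 and 0.41). H2-Q10 went the other way, at 89.6, 113, 122 and 56.7 TPM in Rag2-/- against 40.5 to 53.7 in WT, with 0.94 (adjusted p = 0.0519, limma). The Rag2-/- library with the lowest H2-Q10 was replicate 4. The H2-Q genes are near-copies of each other and share sequence with H2-D1, so the division of reads among them is uncertain.

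**Figure D5:**
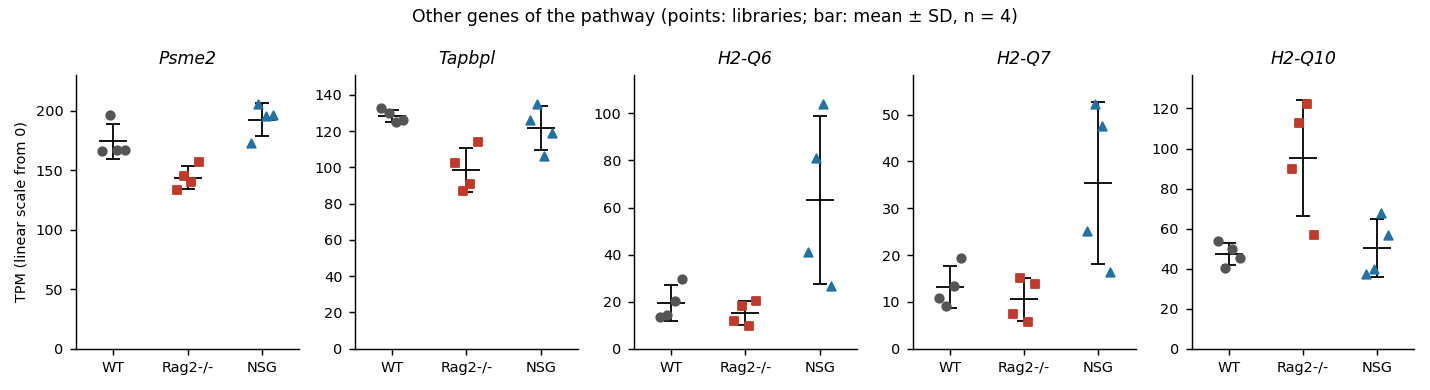
Levels in TPM (y axis, from 0) of Psme2, Tapbpl, H2-Q6, H2-Q7 and H2-Q10 in the 3 hosts, with a point per library and the mean ± SD of 4. Psme2 is lowest in the 4 Rag2-/- libraries, H2-Q6 and H2-Q7 are highest in NSG, and H2-Q10 is highest in 3 of the 4 Rag2-/- libraries.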

How the data were processed

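RNA of GFP+ MLL-AF9 cells was sequenced as read pairs, which the study placed on mm10 using HISAT2 (Galaxy platform). The authors turned their gene counts into TPM, and the deposited values are these TPM, 1 column per library, with no gene removed. The counting tool, its strand setting, the annotation and the gene lengths are not given in the sources used here. TPM are relative to each library's total, so a level reads as a share of RNA.

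Gene IDs were paired with symbols, positions and exon lengths in GENCODE M21 (55141 of 55401). Libraries were grouped by the host in the labels, which number them as biological replicates. The 15026 genes whose mean TPM reached 1 were fitted as log2(TPM + 1), all 12 libraries together and without covariate, with limma 3.58.1 in R 4.3.3 (eBayes with a trend), and adjusted by the Benjamini-Hochberg method per comparison. A gene was called at an adjusted p below 0.05 and a log2 fold change beyond 0.5. This differs from count-based testing in that fold changes of low genes are understated. Ratios were compared by exact permutation tests and correlations by 100000 permutations over a family of 11 relations, 1 of which is not reported here (Python 3.11.15, numpy 2.4.6, scipy 1.17.1). The fit was tested on simulated data. Whole reads were estimated from TPM times exon length. Genes named were the 10 members, genes of the pathway lists called or with the largest differences, others chosen after their values were seen, and the 5 genes most like the members. The members and lists were chosen with earlier results of these data known. Alternatives were a pseudocount of 0.1, at least 1 TPM in every library, all genes above 0, quantile and median ratio scaling, no trend, each pair of hosts alone, a replicate block, no fold limit, leaving out each library, and voom on estimated reads, the last added after seeing the data. Promoter windows are from RefSeq (8 of 10 members).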

Additional observations from a re-analysis of the deposited data

Results flagged for a closer look

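Of 51 groups of 4 libraries examined for a lone value (10 members, 6 ratios and the members' sum in 3 hosts), 4 held a library whose gap to the nearest of the others was a larger part of the whole range than Dixon's 95% critical value for groups of 4, where chance alone gives about 2.55. In WT, replicate 2 was highest for Tap2 (200 TPM, gap 0.893 of the range) and for Psmb10 (271 TPM, gap 0.855). In NSG, replicate 2 was lowest for Tapbp (147 TPM, gap 0.837), although it was the highest NSG library for B2m, Nlrc5 and Psmb9. In WT, replicate 1 was lowest in the ratio of Psmb10 to Psmb7 (2.90, gap 0.855). Without NSG replicate 2, the log2 fold change of Tapbp in NSG against WT was -0.20, and that of Rag2-/- against NSG was -0.02.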

How the results depend on the processing

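The count of members called was 0 in every comparison under every alternative but 2. Without a limit on the fold change, 1 member was lower in Rag2-/- than in WT, Tap2 at -0.27 (adjusted p = 0.0477), and with voom on estimated reads, 1 was lower in Rag2-/- than in NSG, H2-K1 at -0.59. On the adjusted p alone, voom passed Tap2 against WT and H2-K1, Tap1 and Psmb9, 3 members, against NSG. On that limit 1.61% and 0.16% of all genes were lower. The adjusted p of Tap2 was 0.0225 to 0.144 with single libraries left out, below 0.05 in 3 of 12, and below 0.05 in 6 of 9 other fits. With the 8 libraries of a comparison alone, Psmb8 (0.0307) and Psmb9 (0.0499) passed against WT on the adjusted p alone. Leaving out each library in turn left the count at 0. The number of members below 0 against WT was 10 under every alternative, and against NSG 9 or 10. Their median ranged from -0.35 to -0.21 against WT and from -0.46 to -0.29 against NSG, while that of all genes stayed between -0.02 and 0.03. Members lower at an unadjusted p under 0.05 numbered 6 to 9 against WT and 5 to 9 against NSG. The replicate numbers do not pair the libraries: over 12 same-numbered pairs the correlation of deviations was -0.09 to 0.03, and with the replicate block 0 members were called, with 9 and 8 lower at an unadjusted p under 0.05 against WT and NSG.

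Some small differences changed sign. With single libraries left out, the log2 fold change ran from -0.016 to 0.10 for Tapbp in Rag2-/- against NSG, and in NSG against WT from -0.10 to 0.15 for Nlrc5 and from -0.061 to 0.16 for Psmb8. The log2 difference of ratios ran in NSG against WT from -0.10 to 0.10 for Psmb9 to Psmb6, from -0.025 to 0.058 for H2-K1 to H2-D1 and from -0.24 to 0.0024 for H2-K1 to B2m. In Rag2-/- against NSG it ran from -0.038 to 0.099 for Psmb10 to Psmb7 and from -0.22 to 0.022 for H2-K1 to B2m, and against WT from -0.035 to 0.039 for Tap1 to Tap2. The correlation with H2-K1 turned to -0.42 for Tapbp without the 2 farthest libraries. The causes were not tested. At the lowest library the counting error was below the spread between libraries for every member. The effect of depth on the comparisons was not tested.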
